A study of Homo sapiens with 8 samples.

Results

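The type I interferon response was followed through 51 genes, chosen by name from the ligand and its receptor through the signalling kinases and factors to the RNA sensors and antiviral effectors. A gene was measured where the platform annotation gave a probe set its symbol and no other, which held for 49 of the 51 genes and 137 of 49293 probe sets, among 18132 genes in all. STAT2 had no probe set of its own here and USP18 only a shared one, so neither is given a value. RNA came from H1299, a human cell line derived from a non-small cell lung cancer and grown in serum-containing medium, and was hybridised to 8 one-colour PrimeView arrays. The KD-USF1 group (3 arrays) had received short hairpin RNA against USF1, an E-box-binding transcription factor, and was compared with NC-USF1 (3 arrays), the control for that knockdown. The KD-UGT1A3 group (1 array) had received short hairpin RNA against UGT1A3, a UDP-glucuronosyltransferase, and was compared with NC-UGT1A3 (1 array), the control for that knockdown. The hairpin sequences, the control construct and the time after transfection are not given in the sources used here, and nothing says that the replicates were separate cultures, so the p-values rest on a spread between arrays that may be technical.

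Type I interferons bind a receptor of IFNAR1 and IFNAR2, whose associated kinases JAK1 and TYK2 phosphorylate STAT proteins. STAT2 then joins IRF9 in a nuclear complex that binds the interferon-stimulated response element (ISRE), a pair of GAAA repeats in the promoters of many antiviral genes. The encoded proteins sense viral RNA, block translation or membrane fusion, or attach the ubiquitin-like protein ISG15 to others, and many cells keep them at a low tonic level without infection.

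Promoter sequences from RefSeq (GRCh38.p14) are shown for the 8 genes that passed with the largest changes after USF1 knockdown. These genes were chosen by the size of the change, and 7 of them rose. Each sequence runs from 250 bases before the annotated start to 30 bases after it, 5′ to 3′ on the gene's strand. Where a gene had several annotated starts, the window with the most motif matches was chosen. UBE2L6, IFNAR1, PARP9 and IFIT3 had 2 windows each. Capitals mark the motifs searched: the ISRE core (GAAANNGAAA or TTTCNNTTTC), the E-box CACGTG that USF1 is known to bind, and the GAS core TTCNNNGAA, a STAT-type element. IFIT5, whose window holds 3 ISRE cores, was added after its values were seen, as a family member that did not pass the test.
UBE2L6, chr11:57567906-57568185, minus strand: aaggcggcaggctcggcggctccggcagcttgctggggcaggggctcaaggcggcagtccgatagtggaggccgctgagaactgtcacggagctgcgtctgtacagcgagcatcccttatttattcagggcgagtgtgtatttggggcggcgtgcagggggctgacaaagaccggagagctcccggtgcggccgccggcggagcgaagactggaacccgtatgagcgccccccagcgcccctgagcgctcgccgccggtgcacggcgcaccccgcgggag
IFIT1, chr10:89392373-89392652, plus strand: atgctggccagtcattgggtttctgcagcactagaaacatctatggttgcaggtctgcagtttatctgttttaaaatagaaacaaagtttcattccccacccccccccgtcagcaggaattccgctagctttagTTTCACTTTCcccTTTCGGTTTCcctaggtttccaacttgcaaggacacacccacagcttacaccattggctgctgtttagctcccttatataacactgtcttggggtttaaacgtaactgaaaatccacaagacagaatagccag
IRF9, chr14:24161015-24161294, plus strand: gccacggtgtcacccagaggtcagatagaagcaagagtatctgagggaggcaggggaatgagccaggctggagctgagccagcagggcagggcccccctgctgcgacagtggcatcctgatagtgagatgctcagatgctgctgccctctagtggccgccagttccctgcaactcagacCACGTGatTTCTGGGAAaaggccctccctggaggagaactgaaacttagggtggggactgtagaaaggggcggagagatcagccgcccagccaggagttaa
PARP9, chr3:122564271-122564550, minus strand: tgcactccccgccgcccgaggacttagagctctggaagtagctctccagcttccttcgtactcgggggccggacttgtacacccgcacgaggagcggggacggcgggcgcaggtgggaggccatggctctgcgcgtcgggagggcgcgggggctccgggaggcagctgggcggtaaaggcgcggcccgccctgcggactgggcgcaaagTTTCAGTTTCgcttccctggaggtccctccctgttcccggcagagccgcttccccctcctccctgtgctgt
DTX3L, chr3:122564088-122564367, plus strand: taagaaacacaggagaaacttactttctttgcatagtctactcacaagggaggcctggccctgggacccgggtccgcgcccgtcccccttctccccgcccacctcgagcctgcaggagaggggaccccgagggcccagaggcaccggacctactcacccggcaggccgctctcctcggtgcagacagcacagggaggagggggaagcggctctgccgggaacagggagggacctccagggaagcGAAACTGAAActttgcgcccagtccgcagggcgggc
IFIT3, chr10:89327747-89328026, plus strand: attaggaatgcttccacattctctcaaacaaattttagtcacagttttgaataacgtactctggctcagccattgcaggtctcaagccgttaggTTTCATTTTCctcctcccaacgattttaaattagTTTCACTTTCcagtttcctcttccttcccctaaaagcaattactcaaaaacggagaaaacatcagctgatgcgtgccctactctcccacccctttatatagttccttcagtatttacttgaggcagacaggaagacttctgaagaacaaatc
IFI35, chr17:43006534-43006813, plus strand: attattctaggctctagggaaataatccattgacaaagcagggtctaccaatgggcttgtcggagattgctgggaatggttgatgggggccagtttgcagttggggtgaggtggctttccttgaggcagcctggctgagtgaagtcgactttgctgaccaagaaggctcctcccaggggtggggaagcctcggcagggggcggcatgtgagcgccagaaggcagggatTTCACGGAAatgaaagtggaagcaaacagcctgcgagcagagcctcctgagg
IFNAR1, chr21:33324145-33324424, plus strand: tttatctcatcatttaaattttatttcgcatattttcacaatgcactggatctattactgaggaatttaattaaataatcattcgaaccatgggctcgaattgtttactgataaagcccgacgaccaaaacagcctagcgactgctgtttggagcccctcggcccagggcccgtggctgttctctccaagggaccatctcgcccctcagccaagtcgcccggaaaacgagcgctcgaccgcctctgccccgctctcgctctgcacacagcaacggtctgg
IFIT5, chr10:89414318-89414597, plus strand: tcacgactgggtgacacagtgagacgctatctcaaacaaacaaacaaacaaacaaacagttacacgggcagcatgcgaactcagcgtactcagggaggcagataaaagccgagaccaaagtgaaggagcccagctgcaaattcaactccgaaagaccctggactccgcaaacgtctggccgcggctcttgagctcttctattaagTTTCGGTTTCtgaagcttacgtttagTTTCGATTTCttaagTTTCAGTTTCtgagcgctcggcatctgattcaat

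PARP9 and DTX3L lie head to head, and their printed windows share 97 bases. Both contain the same ISRE core, at chr3:122564332-122564341, which starts 41 bases before the printed PARP9 start and 6 bases before the DTX3L start. The other annotated PARP9 start had no core in its window. IFIT1 carries cores beginning 116 and 103 bases before its start. The printed IFIT3 window has 2, and a further IFIT3 start site in the table has cores at 94 and 51 bases. No ISRE core of these letters stood in the printed windows of UBE2L6, IRF9, IFI35 or IFNAR1. IRF9 had an E-box 71 bases upstream, next to a GAS core at 63 bases, and IFI35 had a GAS core at 22 bases.

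Of the 51 genes, 40 had a window in the RefSeq table, and these were searched on both strands over 300 bases (250 before the start, 50 after). At least 1 ISRE core was found in 23 of the 40 genes (57.5%), against 4.38% of all 27305 genes with a window and 3.57% of 35116 windows. Among genes that rose after USF1 knockdown 11 of 18 held the core, among those that did not pass 6 of 10, among those too dim to test 6 of 9, and among those that fell 0 of 2. The E-box was found in 6 of the 40 genes (15%), against 8.77% of all genes and 7.26% of windows: IRF9 and SP100 among those that rose, ADAR among those that fell, and EIF2AK2, HERC5 and ISG20 among those that did not pass. The GAS core was found in 9 genes (22.5%), against 9.38% of all genes and 7.66% of windows. ISRE cores overlapped each other in ISG15 and IFIH1, among others, and a GAS core overlapped an ISRE core in IFITM1, BST2, IFI27 and MX1.

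**Figure D1:**
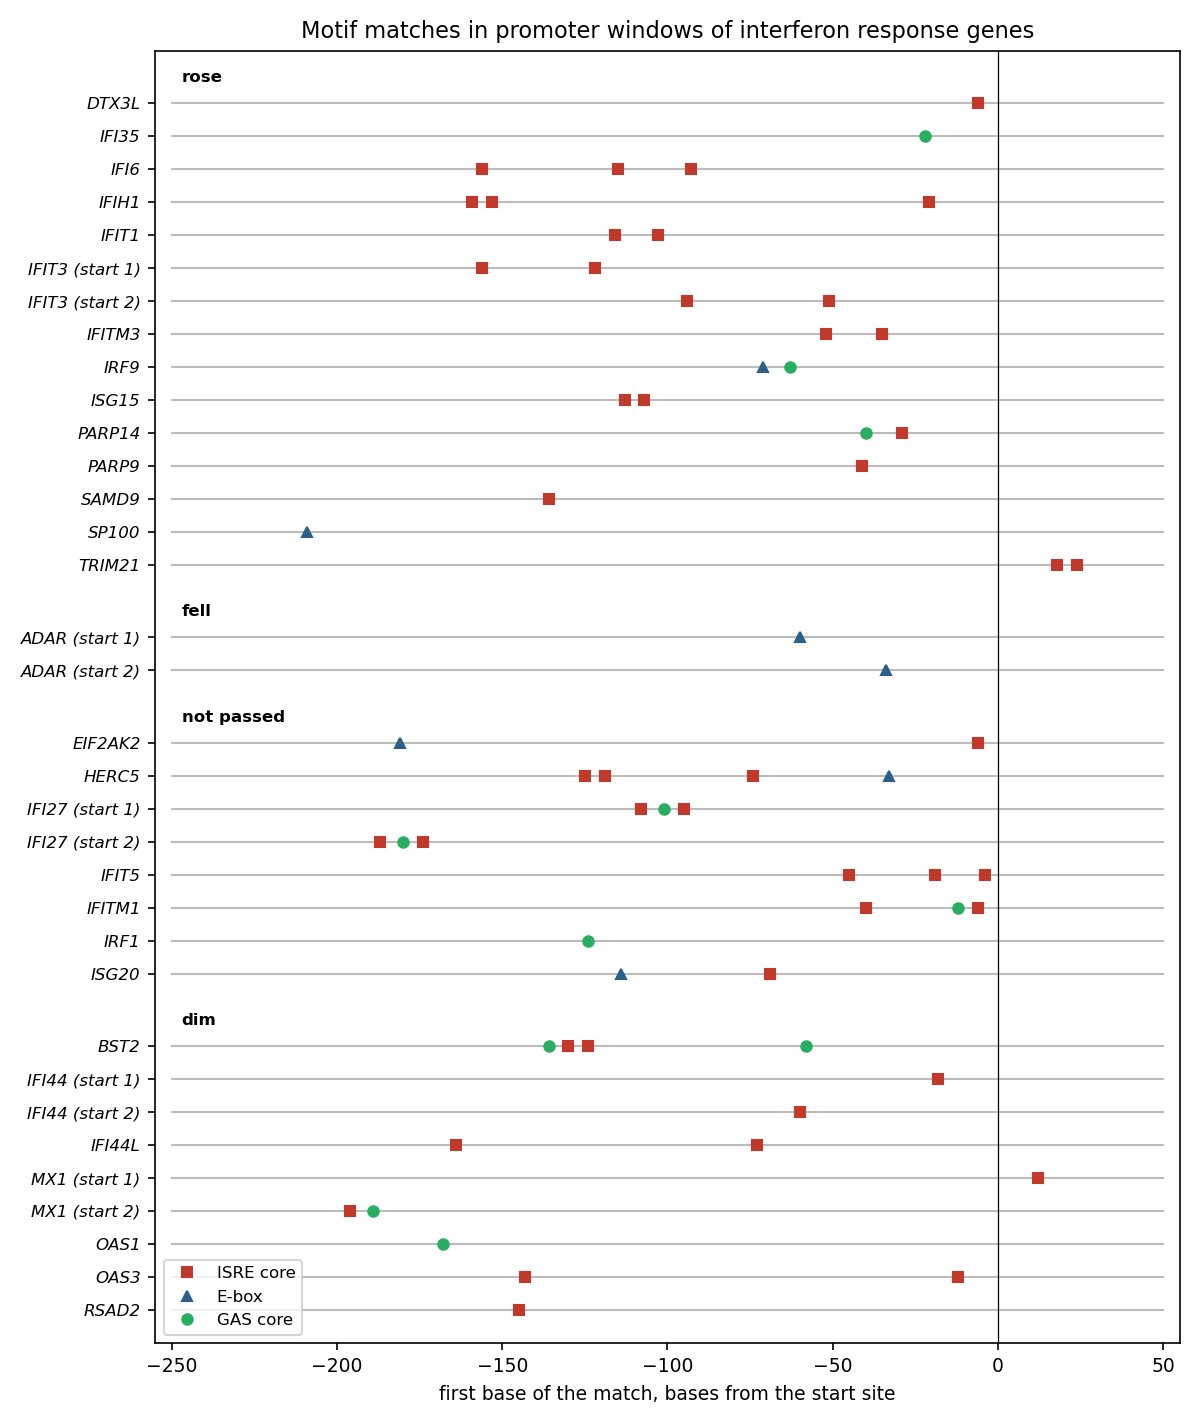
Positions of motif matches in the promoter windows of interferon response genes with at least 1 match, in bases from the annotated start (vertical line), grouped by the result after USF1 knockdown. Squares are ISRE cores, triangles E-boxes and circles GAS cores; squares appear in the groups that rose, did not pass and were dim, and the 2 ADAR starts show only an E-box.

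The deposited values are log2 intensities of probe sets, and each gene was represented by its brightest probe set. USF1 itself read 6.06, 5.88 and 6.13 on the KD-USF1 arrays, against 6.31, 6.55 and 6.42 on the NC-USF1 arrays, a fall of 0.40 on the log2 scale to 75.6% of control (SE 0.08, adjusted p = 0.00818, limma), so this probe set showed a partial knockdown. In the UGT1A3 pair USF1 read 4.98 in KD-UGT1A3 and 4.73 in NC-UGT1A3, near the dim limit, and UGT1A3 has no probe set of its own. Array medians were 6.53 to 6.55 in the USF1 set, 5.63 for KD-UGT1A3 and 5.59 for NC-UGT1A3, so no level was compared across the sets. Arrays correlated at 0.998 within KD-USF1, 0.999 within NC-USF1 and 0.996 to 0.997 between the groups. The carcinoma-line markers KRT18 and VIM were bright and did not pass, and KRT8 rose by 0.25, while KRT19 and EPCAM lay under the dim limit. Markers of other cell types were mostly at or under the dim limit: PTPRC, CD14, LYZ, IL3RA, CLEC4C, COL1A1, COL3A1 and CDH5 lay under it, PECAM1, VWF and PDGFRB stood just above it, and of the leukocyte list CD68 alone was bright (-0.09, adjusted p = 0.159). The number of arrays limits the precision, and in bulk RNA fewer cells of a type and less RNA per cell cannot be told apart.

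After USF1 knockdown interferon effector genes were modestly higher, whereas the receptor chain IFNAR1 was lower. Of the 37 interferon genes above the dim limit of log2 5.63, 21 rose, IFNAR1 and ADAR fell, and 14 did not pass (limma, Benjamini-Hochberg adjusted over 11448 genes, threshold 0.05). The share that rose was 56.8%, and over all genes tested it was 22%; for falls the share over all genes was 18.7%. The median change was 0.18, with 0.01 over all genes. All 3 KD-USF1 arrays lay above all 3 NC-USF1 arrays for 22 of the 37 genes (29% over all genes) and below them for 2 (24.6%). The changes were small, and rises ran from 0.15 to 0.64. Only UBE2L6 and IFNAR1 of the 37 reached 1.5-fold, where 194 of all 11448 genes tested passed with a change of that size. Among the 14 that did not pass, changes ran from -0.07 to 0.09.

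**Figure D2:**
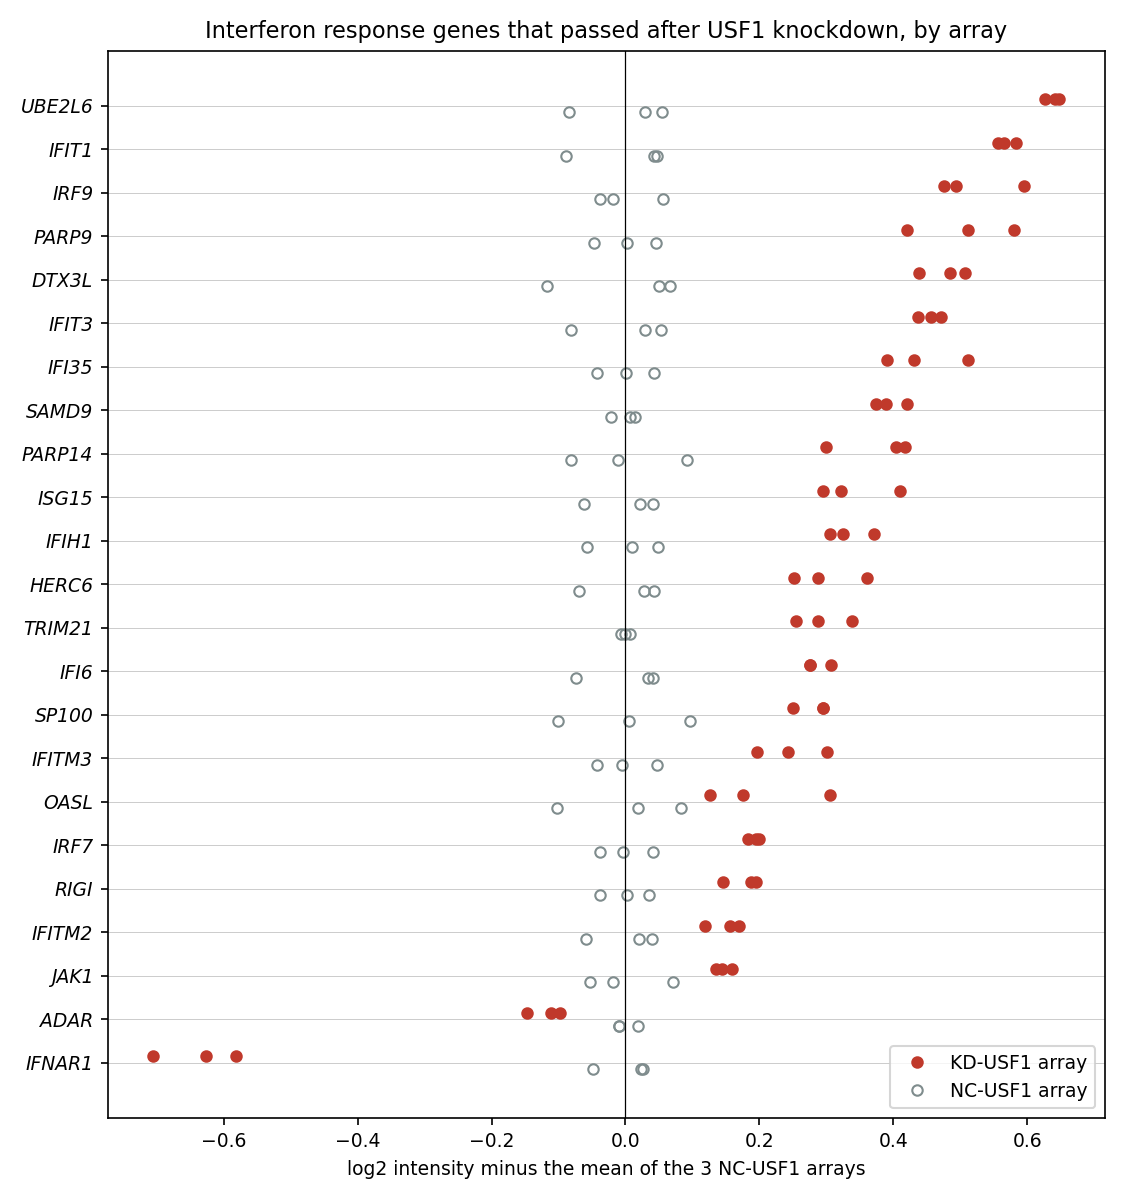
Log2 intensity of each interferon response gene that passed after USF1 knockdown, minus the mean of the 3 NC-USF1 arrays. Filled points are KD-USF1 arrays and open points NC-USF1 arrays, 3 each. The groups do not overlap for any of the 23 genes, and IFNAR1 and ADAR alone lie left of the controls. The genes were chosen by the test on these same arrays, so the separation is not further evidence.

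The receptor and ligand genes did not rise. IFNAR1, the chain that JAK1's partner TYK2 docks on, read 8.84, 8.88 and 8.76 on the KD-USF1 arrays, against 9.49, 9.49 and 9.42 on the NC-USF1 arrays. It fell by 0.64 (SE 0.04, adjusted p = 0.000116) to 64.3% of the control level, and its 4 bright probe sets all fell, with changes of -0.67 to -0.46. The groups were far apart on every array. IFNAR2, the high-affinity chain, read 8.36, 8.32 and 8.15 in KD-USF1 and 8.27, 8.28 and 8.12 in NC-USF1, with overlapping groups and a change of 0.05 (adjusted p = 0.594); its 3 bright probe sets disagreed, from -0.22 to 0.10, and none passed. IFNE, an interferon of epithelia, read 6.65, 6.65 and 6.50 in KD-USF1 and 6.61, 6.55 and 6.74 in NC-USF1, also overlapping (-0.03, adjusted p = 0.719).

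Among the 6 measured signalling genes IRF9, IRF7 and JAK1 rose. IRF9, the DNA-binding subunit that brings STAT proteins to the ISRE, read 8.40, 8.30 and 8.28 in KD-USF1, against 7.77, 7.86 and 7.79 in NC-USF1, and rose by 0.52 (SE 0.04, adjusted p = 0.000272). Its groups were separated by more than their own spread, and its 4 bright probe sets all rose, by 0.27 to 0.58. IRF7, the factor that amplifies interferon production, read 7.20, 7.22 and 7.22 in KD-USF1 and 6.98, 7.06 and 7.02 in NC-USF1 (0.19, adjusted p = 0.00303). JAK1 read 11.07, 11.04 and 11.05 in KD-USF1 and 10.86, 10.89 and 10.98 in NC-USF1 (0.15, adjusted p = 0.0215). Both were higher on every knockdown array, but JAK1 did not pass without KD-USF1 replicate 1 (adjusted p = 0.0664), NC-USF1 replicate 1 (0.0698) or NC-USF1 replicate 2 (0.0698), nor with no dim limit (0.0602).

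The kinase TYK2 and the factors IRF1 and IRF3 did not pass. TYK2 read 9.55, 9.44 and 9.49 in KD-USF1 and 9.45, 9.52 and 9.48 in NC-USF1 (0.01, adjusted p = 0.856). IRF1 read 7.70, 7.77 and 7.61 in KD-USF1 and 7.56, 7.68 and 7.61 in NC-USF1 (0.07, adjusted p = 0.30), with bright probe sets from -0.13 to 0.25. For both genes the groups overlapped. IRF3, the factor that RNA and DNA sensors switch on, read 9.90, 9.81 and 9.80 in KD-USF1 and 9.78, 9.79 and 9.79 in NC-USF1 (0.05, adjusted p = 0.273). Its knockdown arrays all lay above the controls by a narrow margin, 4 of its 6 bright probe sets rose when tested singly, and the mean of its probe sets rose by 0.14 (adjusted p = 0.00615).

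The RNA sensor group as listed also holds OASL and ADAR, which aid or limit sensing. Of its 6 tested genes 3 rose and ADAR fell. IFIH1 encodes MDA5, a helicase that detects long double-stranded RNA. It read 9.14, 9.09 and 9.07 in KD-USF1, against 8.71, 8.78 and 8.82 in NC-USF1, and rose by 0.33 (SE 0.04, adjusted p = 0.000751), although the mean of its probe sets, dim ones included, did not pass (0.17, adjusted p = 0.0574). RIGI, the helicase that detects RNA ends, read 8.97, 8.96 and 8.92 in KD-USF1 and 8.78, 8.81 and 8.74 in NC-USF1 (0.18, adjusted p = 0.00516), and 2 of its 3 bright probe sets rose. OASL, a synthetase-like protein that aids RIG-I, read 6.36, 6.41 and 6.54 in KD-USF1 and 6.32, 6.13 and 6.26 in NC-USF1 (0.20, SE 0.06, adjusted p = 0.0419). The OASL groups were separate but close, and leaving out KD-USF1 replicate 2 or 3 or NC-USF1 replicate 2 or 3 ended the call (adjusted p = 0.0653, 0.0933, 0.114 and 0.0887).

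ADAR edits adenosine to inosine in double-stranded RNA and so hides cellular RNA from the sensors. It read 11.65, 11.61 and 11.66 in KD-USF1, against 11.78, 11.75 and 11.75 in NC-USF1, and fell by 0.12 (SE 0.03, adjusted p = 0.0151). Its groups did not overlap, yet 2 of its 6 bright probe sets passed singly and the call was lost without NC-USF1 replicate 1 (adjusted p = 0.0566). The double-stranded RNA kinase EIF2AK2 (PKR) and the synthetase OAS2, which makes the signal for RNase L, differed by 0.04 (adjusted p = 0.417) and 0.09 (adjusted p = 0.397); OAS2 passed only without KD-USF1 replicate 2 (0.19, adjusted p = 0.0210).

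The IFIT family, proteins that bind foreign RNA ends and block its translation, split into a pair that rose and a pair that did not pass. IFIT1 read 8.29, 8.27 and 8.26 in KD-USF1, against 7.75, 7.62 and 7.75 in NC-USF1, and rose by 0.57 (SE 0.04, adjusted p = 0.000183). IFIT3, its binding partner, read 8.07, 8.05 and 8.08 in KD-USF1, against 7.53, 7.66 and 7.64 in NC-USF1, and rose by 0.45 (SE 0.04, adjusted p = 0.000346). The knockdown arrays of both genes sat close together and well above the controls. IFIT2 read 7.43, 7.45 and 7.36 in KD-USF1 and 7.47, 7.54 and 7.33 in NC-USF1 (-0.03, adjusted p = 0.696), with groups that overlapped. IFIT5 read 8.36, 8.28 and 8.33 in KD-USF1 and 8.37, 8.33 and 8.38 in NC-USF1 (-0.04, adjusted p = 0.431). Its printed window carries 3 ISRE cores, 1 more than that of IFIT1.

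The ISG15 conjugation genes contained the largest rise among the interferon genes. UBE2L6, the E2 enzyme that hands ISG15 to its targets, read 7.85, 7.85 and 7.83 in KD-USF1, against 7.12, 7.26 and 7.24 in NC-USF1, and rose by 0.64 (SE 0.04, adjusted p = 0.000113) to 156% of the control level. ISG15 read 10.24, 10.13 and 10.15 in KD-USF1, against 9.77, 9.85 and 9.87 in NC-USF1, and rose by 0.34 (SE 0.04, adjusted p = 0.00124). Both genes were higher on every knockdown array, and each rested on 1 bright probe set. HERC6, a HECT-type ligase that conjugates ISG15 in mouse, read 7.44, 7.55 and 7.47 in KD-USF1 and 7.21, 7.23 and 7.11 in NC-USF1 (0.30, adjusted p = 0.00219). HERC5, the human ISG15 ligase, differed by 0.06 (adjusted p = 0.321) and did not pass.

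The 3 genes of the PARP and ubiquitin ligase group all rose. PARP9, which forms a complex with the ligase DTX3L, read 7.56, 7.63 and 7.47 in KD-USF1, against 7.05, 7.01 and 7.10 in NC-USF1, and rose by 0.50 (SE 0.05, adjusted p = 0.000421). Its second bright probe set did not pass (-0.05), so the PARP9 rise rests on 1 probe set. DTX3L read 8.57, 8.55 and 8.50 in KD-USF1, against 8.11, 7.95 and 8.13 in NC-USF1, and rose by 0.48 (SE 0.05, adjusted p = 0.000767), with both of its bright probe sets rising. PARP14, an ADP-ribosyltransferase, read 9.52, 9.53 and 9.42 in KD-USF1 and 9.21, 9.11 and 9.04 in NC-USF1 (0.37, adjusted p = 0.00203). Its 6 bright probe sets ran from 0.02 to 0.43 and 4 of them rose. The groups of all 3 genes were separate.

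Of the membrane-acting proteins, IFITM3 and IFITM2, which block fusion of virus and endosome, rose. IFITM3 read 11.38, 11.27 and 11.32 in KD-USF1 and 11.03, 11.07 and 11.12 in NC-USF1 (0.25, SE 0.04, adjusted p = 0.00304). IFITM2 read 10.51, 10.47 and 10.52 in KD-USF1 and 10.29, 10.37 and 10.39 in NC-USF1 (0.15, adjusted p = 0.0159). Groups were separate for both, but the IFITM2 call was lost without KD-USF1 replicate 1 (adjusted p = 0.0506). IFITM2 and IFITM3 are near-identical neighbours, and their probe sets carry an Affymetrix suffix (_x_at) for probes that may match other transcripts, so their values are uncertain as single genes. IFITM1, of the cell surface, differed by -0.07 (adjusted p = 0.543).

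Of the 8 other effectors tested 5 rose. IFI35, a small leucine zipper protein, read 9.03, 9.11 and 8.99 in KD-USF1, against 8.56, 8.64 and 8.60 in NC-USF1, and rose by 0.44 (SE 0.04, adjusted p = 0.00039). SAMD9, a restriction factor of poxviruses, read 8.83, 8.86 and 8.82 in KD-USF1, against 8.42, 8.46 and 8.45 in NC-USF1, and rose by 0.39 (SE 0.03, adjusted p = 0.000149). In both, the lowest knockdown array stood clear of the highest control. TRIM21, a cytosolic antibody receptor and ubiquitin ligase, read 7.62, 7.59 and 7.67 in KD-USF1 and 7.34, 7.33 and 7.34 in NC-USF1 (0.29, adjusted p = 0.000627). IFI6, a mitochondrial and endoplasmic reticulum protein, read 8.24, 8.21 and 8.21 in KD-USF1 and 7.97, 7.97 and 7.86 in NC-USF1 (0.29, adjusted p = 0.00156). SP100, a nuclear body protein, read 9.63, 9.58 and 9.63 in KD-USF1 and 9.34, 9.23 and 9.43 in NC-USF1 (0.28, SE 0.05, adjusted p = 0.00551). These 3 were also higher on every knockdown array, and 6 of the 8 bright SP100 probe sets rose. The exonuclease ISG20, IFI27 and the XIAP-associated factor XAF1 did not pass, with changes of 0.02, 0.04 and 0.03.

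**Figure D3:**
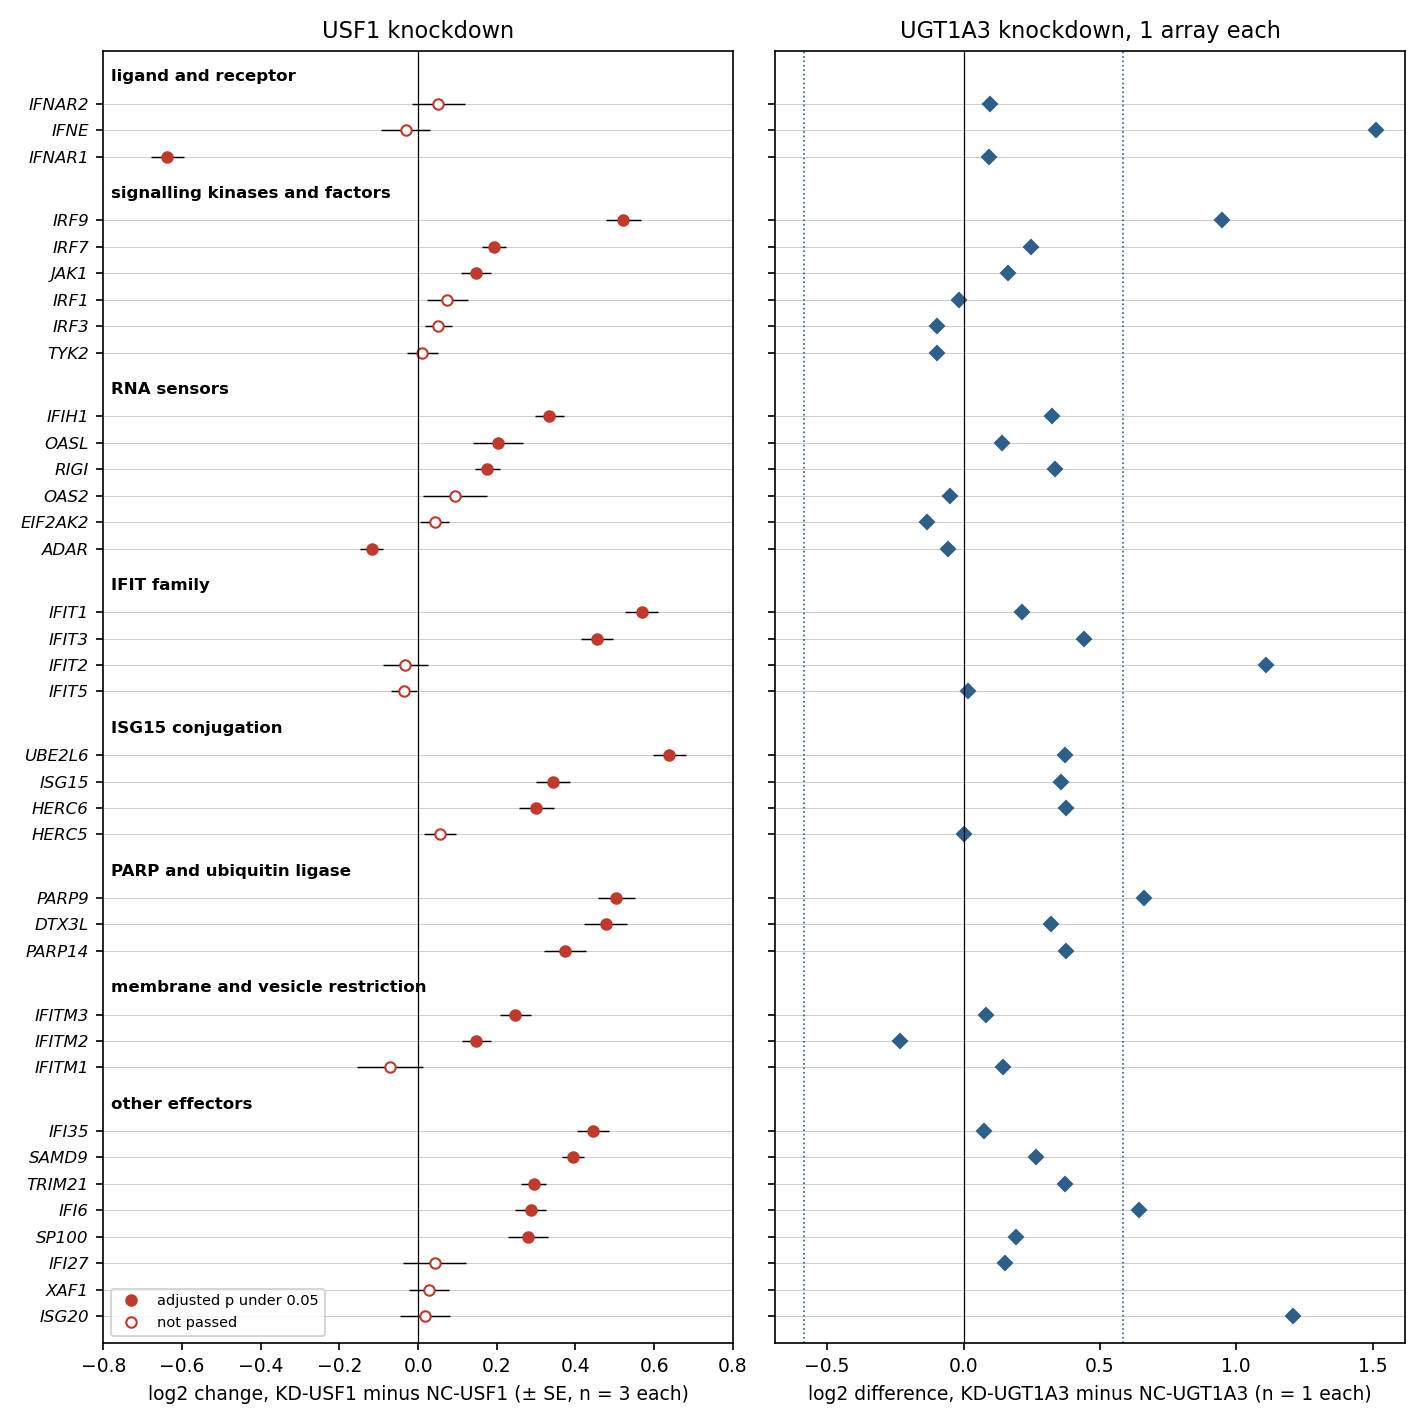
Interferon response genes tested after USF1 knockdown, by role. Left, log2 change KD-USF1 minus NC-USF1 with its standard error (3 arrays each), filled where the adjusted p was under 0.05; right, log2 difference KD-UGT1A3 minus NC-UGT1A3 (1 array each), with dotted lines at 1.5-fold and XAF1 left out as dim. On the left IFNAR1 stands at -0.64 and UBE2L6 at 0.64; on the right ISG20 stands at 1.21, and the IFNE point at 1.51 is drawn from a control value under the dim limit (0.85 from the limit).

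Several of the best-known interferon-induced genes were too dim to test. The 12 genes under the limit were MX1, MX2, OAS1, OAS3, IFI44, IFI44L, DHX58, SAMD9L, TRIM22, BST2, RSAD2 and CMPK2, which include the antiviral GTPases MX1 and MX2 and the radical enzyme RSAD2 (viperin). Their group means were 3.62 to 5.56 in KD-USF1 and 3.55 to 5.42 in NC-USF1. The knockdown arrays lay above all controls for 3 of the 12, IFI44, SAMD9L and BST2, where 29% of the genes above the limit did so. With no dim limit IFI44 (0.42, limma adjusted p = 0.0387) and SAMD9L (0.43, adjusted p = 0.0105) passed, where 11% of all genes rose. IFI44 then read 5.33, 5.29 and 5.13 in KD-USF1, against 4.91, 4.97 and 4.61 in NC-USF1, and SAMD9L read 5.24, 5.15 and 5.39 in KD-USF1, against 4.92, 4.77 and 4.82 in NC-USF1. The groups of both were separate at these low intensities, whereas MX1 read 3.83, 3.82 and 4.02 in KD-USF1 and 3.87, 3.83 and 3.98 in NC-USF1, with groups that overlapped. Changes on the other probe sets, all dim, ran from -0.08 to 0.70 for IFI44 and from 0.04 to 0.38 for SAMD9L.

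Testing each probe set on its own gave a similar split. Of 137 probe sets 81 were bright enough to test; 42 rose, 6 fell and 33 did not pass, where 19.8% of all 29576 probe sets tested rose and 17.5% fell. The median change was 0.14, with 0.01 over all probe sets tested. The 6 falls were the 4 bright probe sets of IFNAR1 and 2 of ADAR. Of the 21 genes that rose, 12 had a single bright probe set and 9 had several; in IRF9, DTX3L, IFI35, IFITM2 and JAK1 every bright probe set rose, and in PARP9, PARP14, SP100 and RIGI only some did. Of the probe sets that stood for the 21, 7 carry the suffix _s_at, used for probe sets shared by several transcripts (ISG15, UBE2L6, IFI35, TRIM21, PARP14, DTX3L and SP100), and 4 the suffix _x_at (IFIT3, OASL, IFITM2 and IFITM3), so a contribution of other transcripts to these values was not tested.

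**Figure D4:**
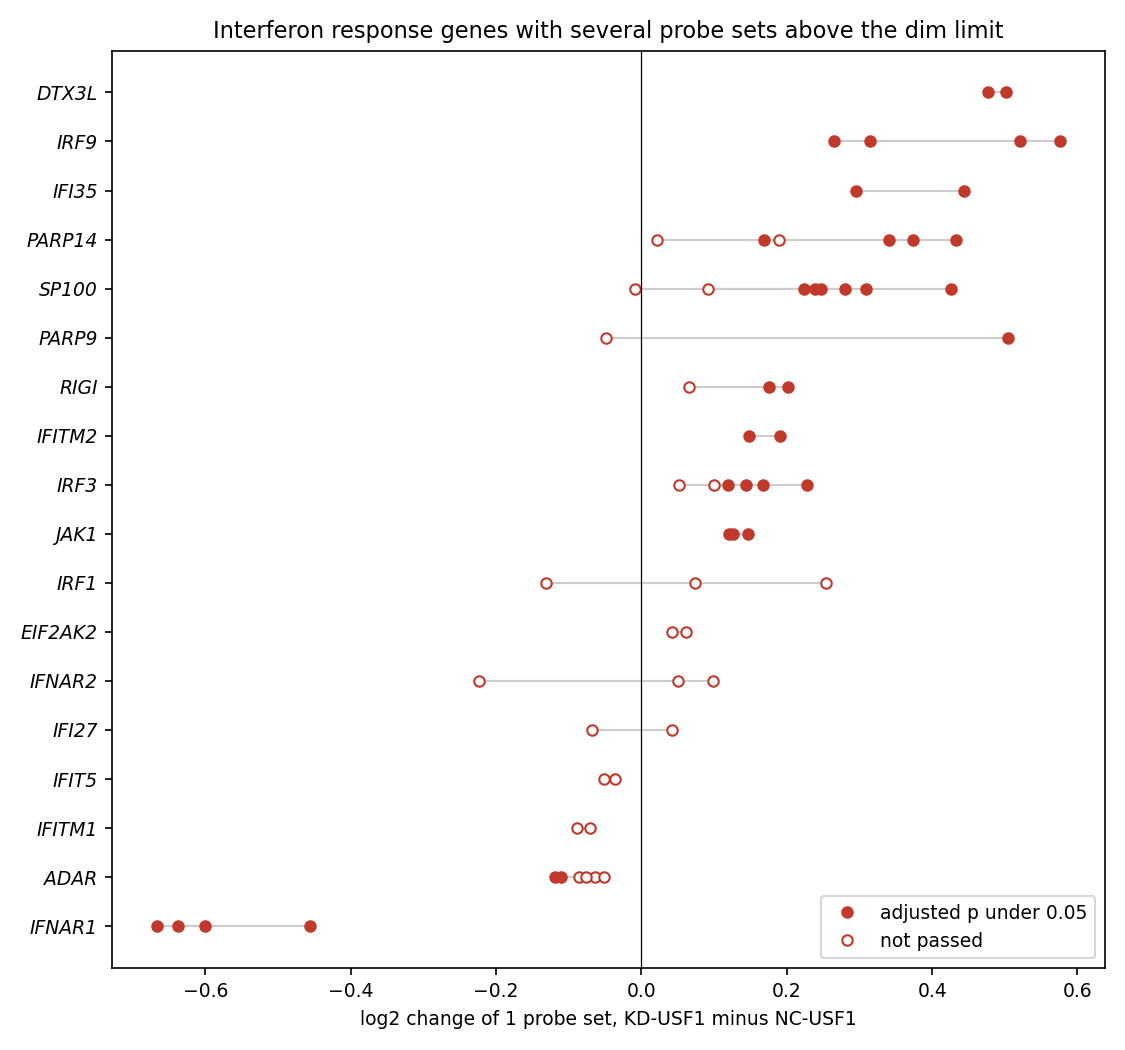
Log2 change KD-USF1 minus NC-USF1 of every bright probe set of the interferon response genes that have more than 1, joined by a line within a gene and filled where the adjusted p over all probe sets was under 0.05. The 4 IFNAR1 probe sets lie between -0.67 and -0.46, those of IRF9 between 0.27 and 0.58, and those of PARP9 apart at -0.05 and 0.50.

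In the UGT1A3 pair interferon genes were also mostly higher on the knockdown array, with ISG20 and IFIT2 at least 2-fold higher. The pair has 1 array per group, so these differences have no replicate check and no test. Of 38 interferon genes above the limit of log2 4.76, 29 were higher, 8 lower and 1, HERC5, read the same on both arrays; over all 11618 genes 52.1% were higher. The median difference was 0.20, with 0.02 over all genes. At least 1.5-fold higher were 6 of the 38, where 2.15% of all genes were; 0 were that much lower (1.41% of all genes), and 3 were at least 2-fold higher (0.172%). Counted from the dim limit, an alternative chosen after the values were seen, 6 were still at least 1.5-fold higher (2.05% of all genes) and 2 at least 2-fold higher (0.138%), since the IFNE control value lay under the limit.

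The ligand IFNE read 5.61 on the KD-UGT1A3 array and 4.09 on the NC-UGT1A3 array, a difference of 0.85 counted from the dim limit (1.51 as deposited). ISG20, an RNA exonuclease, read 6.91 in KD-UGT1A3 and 5.70 in NC-UGT1A3 (1.21). IFIT2 read 7.53 in KD-UGT1A3 and 6.43 in NC-UGT1A3 (1.11, and 0.87 on its other bright probe set). None of these 3 passed after USF1 knockdown, where ISG20 read 6.29, 6.44 and 6.26 in KD-USF1 and 6.24, 6.41 and 6.27 in NC-USF1. IRF9 read 8.21 in KD-UGT1A3 and 7.26 in NC-UGT1A3 (0.95), and its 4 bright probe sets were all higher, by 0.59 to 0.95. PARP9 read 7.19 in KD-UGT1A3 and 6.53 in NC-UGT1A3 (0.66, and 0.25 on its other bright probe set), and IFI6 read 8.11 in KD-UGT1A3 and 7.47 in NC-UGT1A3 (0.64). These last 3 also rose after USF1 knockdown.

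IFNAR1 read 8.20 in KD-UGT1A3 and 8.11 in NC-UGT1A3 (0.09, and 0.06 to 0.19 over its 4 bright probe sets). UBE2L6 differed by 0.37, IFIT3 by 0.44, IFIT1 by 0.21, ISG15 by 0.36 and DTX3L by 0.32, all higher in KD-UGT1A3 and all under 1.5-fold. The lowest differences were those of CMPK2 (-0.35, with the KD-UGT1A3 value under the limit) and IFITM2 (-0.23). On these 2 arrays 2301 probe sets (4.67%) had exactly the same value, HERC5's among them, against 145 on the first 2 NC-USF1 arrays.

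The 2 sets of arrays do not share controls, and 36 interferon genes were measured in both. Of the 21 that rose after USF1 knockdown, 20 were higher in KD-UGT1A3 and IFITM2 was lower. Over all genes that rose after USF1 knockdown and were measured in the pair, 1678 of 2484 (67.6%) were higher in KD-UGT1A3.

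**Figure D5:**
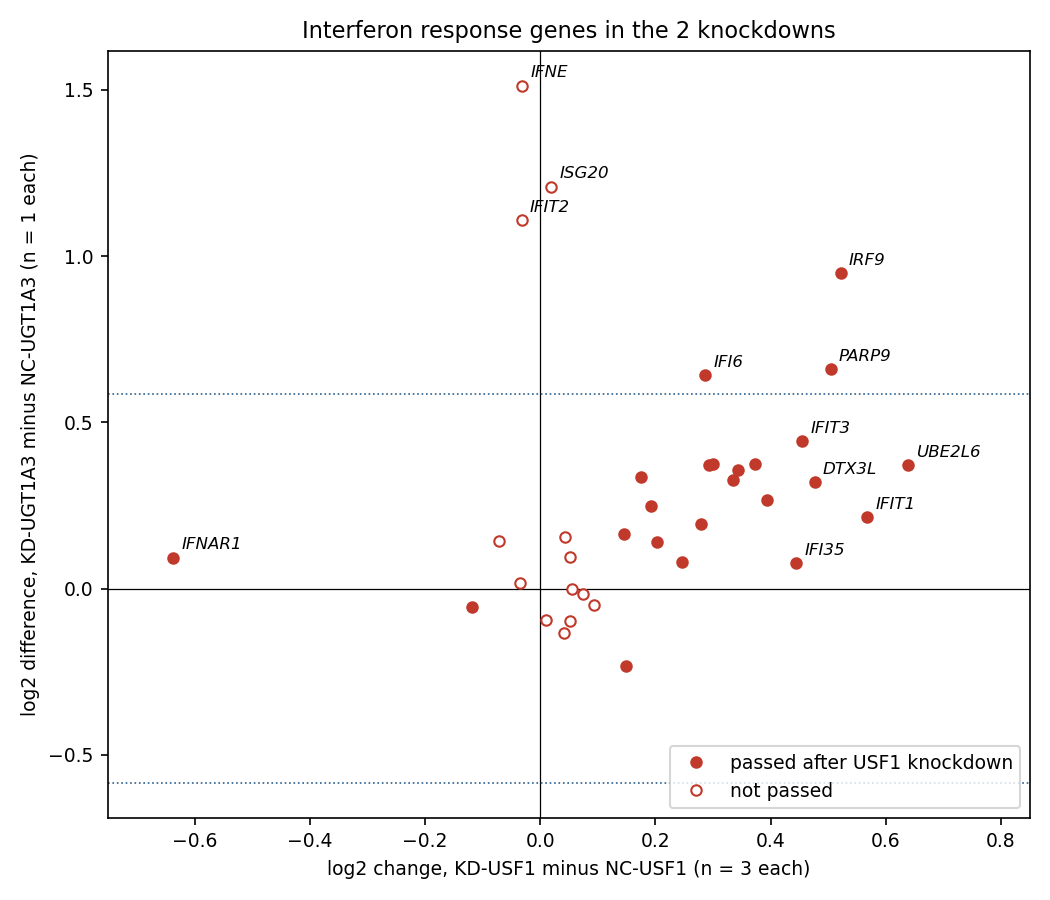
Log2 change after USF1 knockdown (horizontal, 3 arrays each) against the log2 difference in the UGT1A3 pair (vertical, 1 array each) for the 36 interferon response genes measured in both, filled where the gene passed after USF1 knockdown. Dotted lines mark 1.5-fold; IRF9, PARP9 and IFI6 lie at the upper right, IFNE (its control value under the dim limit), ISG20 and IFIT2 high with changes near 0 after USF1 knockdown, and IFNAR1 alone at the far left.

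Other genes of the interferon pathway moved in both directions after USF1 knockdown. Of 46 tested among 65 listed, 17 rose (37.0%), 12 fell and 17 did not pass, with a median of 0.05; over all genes 22% rose and 18.7% fell. The 6 with the smallest adjusted p were TRAF3, GBP3, TRIM56, NMI, SHISA5 and MAVS. The adaptor TRAF3, which couples sensors to IRF3 and IRF7, read 10.45, 10.42 and 10.42 in KD-USF1, against 11.03, 11.07 and 11.06 in NC-USF1 (-0.63, adjusted p = 3.31e-05), although 2 of its 3 bright probe sets rose and only this one fell. MAVS, the mitochondrial adaptor of RIG-I and MDA5, read 8.35, 8.39 and 8.36 in KD-USF1 and 8.62, 8.58 and 8.59 in NC-USF1 (-0.23, adjusted p = 0.00102), and 3 of its 7 bright probe sets fell, over a range of -0.36 to -0.03. Both adaptors were lower on every knockdown array on these probe sets. Of other adaptors in the list, STING1 rose by 0.76 (limma adjusted p = 0.00263) from a control mean of 5.92, near the dim limit. TICAM1 did not pass (-0.04).

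GBP3, a guanylate-binding protein, read 6.99, 7.08 and 6.84 in KD-USF1, against 6.16, 6.18 and 6.22 in NC-USF1 (0.78, adjusted p = 0.000207). TRIM56, a ubiquitin ligase, read 8.79, 8.74 and 8.78 in KD-USF1 and 8.36, 8.44 and 8.40 in NC-USF1 (0.37, adjusted p = 0.000317). NMI, the binding partner of IFI35, read 9.92, 9.92 and 9.92 in KD-USF1 and 9.66, 9.60 and 9.66 in NC-USF1 (0.28, adjusted p = 0.000623). All 5 bright NMI probe sets rose, as did the 5 of SHISA5, an endoplasmic reticulum protein, which read 10.78, 10.76 and 10.76 in KD-USF1 and 10.47, 10.54 and 10.50 in NC-USF1 (0.26, adjusted p = 0.000727). In the UGT1A3 pair 0 of the 48 measured genes of this list were 1.5-fold apart on their brightest probe set. The shares over all genes were near this, at 2.15% higher and 1.41% lower. Other bright probe sets passed that limit for IFI16 (0.60) and TRIM14 (-0.68).

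Genes of MHC class I antigen presentation, are in part induced by interferons: 10 of 19 tested rose (52.6%), 0 fell and 9 did not pass, with a median of 0.11, where 22% of all genes rose and 18.7% fell. At an unadjusted limma p under 0.05 the count of falls was also 0. PSMB8, an immunoproteasome subunit, read 9.14, 9.21 and 9.07 in KD-USF1, against 8.54, 8.57 and 8.61 in NC-USF1 (0.57, adjusted p = 0.00018). HLA-C read 10.95, 10.91 and 10.96 in KD-USF1, against 10.46, 10.50 and 10.48 in NC-USF1 (0.46, adjusted p = 0.000103), and its probes may match other class I genes. The proteasome activator PSME1 read 10.83, 10.78 and 10.77 in KD-USF1 and 10.41, 10.46 and 10.44 in NC-USF1 (0.36, adjusted p = 0.000323). In all 3 the groups were separate. In the UGT1A3 pair 9 of 20 measured genes of this list were higher and 10 lower, with a median of 0.00, where 52.1% of all genes were higher.

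NF-kB factors and inflammatory cytokines, which sensors also switch on, gave 2 rises, 4 falls and 11 genes that did not pass among 17 tested, with a median of 0.05. Over all genes 40.7% passed, 22% rose and 18.7% fell. The count of falls was near its share, and the 2 rises among 17 lay under theirs. The chemokine CXCL2 read 7.64, 7.70 and 7.72 in KD-USF1, against 8.16, 8.18 and 8.20 in NC-USF1 (-0.49, adjusted p = 0.000116). The cytokine LIF read 8.45, 8.45 and 8.55 in KD-USF1, against 9.08, 9.16 and 9.21 in NC-USF1 (-0.67, adjusted p = 0.000136). Both fell on all their bright probe sets, whereas BCL3, a nuclear cofactor of NF-kB, read 7.16, 7.08 and 7.24 in KD-USF1 and 6.87, 6.80 and 6.84 in NC-USF1 (0.32, adjusted p = 0.00182). The lists differ in size and were compared by counts only.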

How the data were processed

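The deposited values of the 8 arrays are probe set intensities that the authors gave on a log2 scale, as read from their range. Per the submitters' processing notes MAS5 was among the tools, with no role or version, and the scaling between arrays is not stated in the sources used. Probe sets with 1 gene symbol in the platform annotation (44988) were used; 1832 with several, 2473 with none and 102 control probe sets named no gene. The probe set brightest on average within a set of arrays stood for its gene. A gene was called dim where that average fell below the 40th percentile over probe sets (log2 5.63 in the USF1 set, 4.76 in the UGT1A3 set). All other genes were fitted with limma 3.58.1 (lmFit, eBayes; R 4.3.3), two-sided, with Benjamini-Hochberg adjustment over all of them and a threshold of 0.05. The UGT1A3 pair gave differences only, read against a limit of 1.5-fold. Changes are knockdown minus control.

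The genes, lists and rule for named genes were chosen with earlier results of these data known. Array values are given for genes that passed, signalling genes, genes 1.5-fold apart in the UGT1A3 pair, and the 6 other pathway genes and 3 genes of each further list with the smallest adjusted p. On data simulated for the USF1 comparison (11448 genes), 11 of 50 genes changed by 1.1-fold were called, 35 of 50 at 1.25-fold, 46 at 1.5-fold and 49 of those changed 2-fold; false calls numbered 7. Same-numbered KD-USF1 and NC-USF1 arrays deviated together with r = -0.10, 0.20 and 0.09, and differently numbered ones with r from -0.27 to 0.19. These values do not settle whether the numbers pair the arrays. The main fit took no pairs, and the replicate block was an alternative. Alternatives were quantile normalization, median centring, dropping the dim limit, raising it to the 60th percentile, adding 16 intensity units, averaging a gene's probe sets, an intensity trend with a robust prior, a replicate block, and leaving out each USF1 array.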

Additional observations from a re-analysis of the deposited data

How the results depend on the processing

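The count of interferon genes that rose after USF1 knockdown stayed between 17 (dim limit at the 60th percentile, where 27 were tested) and 21 over the alternatives, and between 19 and 21 when 1 array was left out. No call reversed its direction. Some genes that did not pass changed sign, such as IFI27 (0.04 to -0.08) and IFIT2 (-0.03 to 0.01), both without NC-USF1 replicate 2. The share of all genes that rose was 11% with no dim limit, 29.3% at the 60th percentile and 17% to 21.7% with 1 array left out. With no dim limit 19 of the 21 kept their call, and IFI44 and SAMD9L were added. The count that fell was 1 with no dim limit, with the mean of a gene's probe sets and without NC-USF1 replicate 1, where ADAR was lost, and 1 to 2 over the arrays left out. The median change was 0.14 with no dim limit and 0.25 at the 60th percentile, and 0.15 to 0.19 with 1 array left out, the lowest without KD-USF1 replicate 3. Tested singly, 34 to 39 probe sets rose and 4 to 5 fell with 1 array left out; of the other pathway genes 12 to 17 rose and 9 to 12 fell. In the UGT1A3 pair 3 genes were higher at a limit of 2-fold (2 without IFNE, whose control value lay under the dim limit), and the median difference was 0.17 with each array centred on its median, 0.14 with no dim limit and 0.25 with the mean of a gene's probe sets. The cause of these shifts was not tested, apart from the fewer genes tested under a higher limit. The replicate block left 21 rises and 2 falls among interferon genes and changed no call of theirs, with 4233 genes passing in all, against 4657 without it. OASL was also lost with the intensity trend (adjusted p = 0.0688) and with no dim limit (0.0917). Low intensity limits the 12 dim genes.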
